A study of Homo sapiens with 24 samples.

Results

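The genes described here are 38 genes of the integrated stress response and the unfolded protein response, chosen by symbol from the 58735 genes of the count tables. All 38 symbols matched a gene identifier. They comprise 8 stress sensors and transcription factors, 5 feedback genes of the integrated stress response, 8 enzymes of amino acid and one-carbon synthesis, 4 amino acid transporters and 13 chaperones and degradation factors of the endoplasmic reticulum. For counting they were also divided into 22 integrated stress response members and 16 unfolded protein response members. The latter are XBP1, ATF6, ERN1 and the 13 endoplasmic reticulum genes.

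The libraries came from HCT116, a human colorectal carcinoma line, and from derivatives in which UHRF1, DNMT1 or both can be degraded. UHRF1 reads methylated DNA behind the replication fork, and DNMT1 is the maintenance DNA methyltransferase. In UHRF1-AID cells an auxin-inducible degron (AID) with mClover was fused to the C-terminus of endogenous UHRF1, in DNMT1-AID cells the degron with mRuby2 was fused to the N-terminus of endogenous DNMT1, and UHRF1-AID/DNMT1-AID cells, termed the compound line, carried both. Polyadenylated RNA of these lines and of the untagged WT line was sequenced in 8 groups of 3 libraries, before auxin (day 0) and after 4 days of auxin (day 4). All lines, WT included, carried OsTIR1 under a doxycycline-inducible promoter. All 4 lines, WT included, received 500 µM auxin with 2 µg/mL doxycycline until day 4, after 1 day in doxycycline and 20 µM auxinole, an OsTIR1 inhibitor. The labels place day 0 before auxin and do not say whether they had received doxycycline. The degron lines were each represented by independent single clones, but the labels do not say which clone a replicate number marks, so the p-values measure the spread between these libraries.

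In the integrated stress response, kinases such as PERK and GCN2 phosphorylate the translation factor eIF2, bulk translation falls and the transcription factor ATF4 is translated, which turns on genes for amino acid synthesis and import and, with CHOP (the product of DDIT3), genes of feedback and cell death. In the unfolded protein response, misfolded proteins in the endoplasmic reticulum activate PERK, which feeds into ATF4, the nuclease IRE1 (encoded by ERN1), which splices the mRNA of XBP1, and the membrane-bound factor ATF6, and these last branches raise chaperones and degradation factors. Much of this control is at the level of translation, splicing or protein cleavage, none of which is read by counts of reads per gene.

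The libraries held between 15824804 and 25073821 counts on genes. The file headers put the 12 libraries of day 0 together with those of UHRF1-AID at day 4 in 1 alignment folder and the other 9 day 4 libraries, which also held 0.891% to 1.65% of ERCC spike-in counts, in a second. Day 4 against day 0 therefore crossed the folders in WT, DNMT1-AID and compound cells, and UHRF1-AID against another line crossed them at day 4, so that folder and group cannot be told apart in these comparisons. The folder is what the headers show, and the labels name no batch. Epithelial markers were present in every library, with EPCAM between 333 and 597 CPM (counts relative to the library's total, scaled by edgeR's TMM factors over all 24 libraries) and KRT8 between 1610 and 3193 CPM, except that VIL1 was at most 0.429 CPM. Markers of 10 genes of blood, stromal, endothelial and liver cells summed to between 1.66 and 22.5 CPM, of which COL1A1 gave up to 19.8 CPM. The transcript of UHRF1 in UHRF1-AID cells at day 0 was at 169 ± 22.6 CPM (SD, n = 3), and in WT at 73.6 ± 20.7 CPM (SD, n = 3). The transcript of DNMT1 in DNMT1-AID cells at day 0 was at 44.5 ± 25.3 CPM (SD, n = 3), and in WT at 143 ± 57.4 CPM (SD, n = 3). The tag acts on the protein, so these levels do not check its degradation.

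Some members carry the letters of sequence elements known to bind these factors, and 14 windows of 30 bases around them are printed. RefSeq promoters of GRCh38.p14, from 250 bases before to 50 after the gene start, were found for 33 of the 38 members, and not for PSPH, SHMT2, ALDH1L2, PYCR1 and SLC7A11. They were searched on both strands for the CARE, the composite element bound by ATF4 with a CEBP partner (TGATGNAA), for the endoplasmic reticulum stress element ERSE (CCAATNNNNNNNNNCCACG) and for ERSE-II (ATTGG, any 1 base, CCACG). HERPUD1 alone held both a CARE and an ERSE-type element, in windows that do not overlap. A match is a description of letters, not of binding. Windows are written 5′ to 3′ on the gene's strand, with the matched fixed letters in capitals and reversed complements where the match was on the other strand.
ATF3, CARE, chr1:212565205-212565234: aaaggtcaggaTGATGgAAggctgtcatat
CHAC1, CARE, chr15:40953251-40953280: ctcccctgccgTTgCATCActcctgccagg
ASNS, CARE, chr7:97872458-97872487: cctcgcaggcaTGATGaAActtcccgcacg
SLC7A1, CARE, chr13:29595663-29595692: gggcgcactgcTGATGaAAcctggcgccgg
SLC3A2, CARE, chr11:62881719-62881748: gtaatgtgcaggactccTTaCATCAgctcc
HERPUD1, CARE, chr16:56931955-56931984: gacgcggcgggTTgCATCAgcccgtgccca
XBP1, ERSE, chr22:28800597-28800626: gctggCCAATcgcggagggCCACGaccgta
HSPA5, ERSE, chr9:125241385-125241414: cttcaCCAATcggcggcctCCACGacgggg
HSP90B1, ERSE, chr12:103930211-103930240: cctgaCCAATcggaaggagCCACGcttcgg
HSP90B1, second ERSE, chr12:103930316-103930345: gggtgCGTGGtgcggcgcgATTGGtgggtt
CALR, ERSE, chr19:12938379-12938408: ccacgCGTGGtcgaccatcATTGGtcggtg
CRELD2, ERSE, chr22:49918549-49918578: cctctCGTGGcgaactcggATTGGgccata
SDF2L1, ERSE-II, chr22:21642105-21642134: cctcggaagCGTGGaCCAATcaaaaccctc
HERPUD1, ERSE-II, chr16:56932016-56932045: cggacgccgATTGGgCCACGttgggagagt

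The CARE was found in 6 of the 33 member promoters (18.2%) and in 3.67% of all 27305 promoters. The ERSE was found in 5 (15.2%) against 0.0806% of all promoters, and ERSE-II in 2 (6.06%) against 0.0549%. The members were chosen as known genes of these responses, so these shares are a description and no test. With the exception of HERPUD1, the CARE matches lay in genes of the ATF4 arm and the ERSE matches in XBP1 and chaperone genes. ATF4, DDIT3, TRIB3, PSAT1 and PHGDH had none of these letters in their windows. The median ratio of observed to expected CpG was 0.906 over the 33 members and 0.58 over all promoters, with a median GC content of 66% and 58.3%. These are counts of letters, and whether the promoters were methylated was not tested. The lowest ratio among members was 0.239, for ATF3.

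At day 0 in WT the members spanned a wide range of levels when scaled to summed exon length. CALR, an endoplasmic reticulum lectin chaperone, was at 457 ± 59.6 CPM per kb (SD, n = 3). HSPA5 (BiP), the chaperone that holds the stress sensors inactive, was at 334 ± 17.9 CPM per kb (SD, n = 3), and ATF4 itself at 264 ± 18.0 CPM per kb (SD, n = 3). The serine synthesis enzyme PSAT1 lay between them at 291 ± 43.4 CPM per kb (SD, n = 3), and HSPA5, PSAT1 and ATF4 did not differ from their neighbours in this order beyond their spread (sum of both SDs), while CALR did from HSPA5. DDIT3 was at 30.6 ± 5.32, ERN1 at 1.67 ± 0.725 and the mitochondrial folate enzyme ALDH1L2 at 0.0742 ± 0.0199 CPM per kb (SD, n = 3). The lipoprotein receptor gene VLDLR had at most 6 counts in any library and passed the filter on low counts in no comparison, so 37 members at most were tested.

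Some members share exonic sequence with other genes, and whether counting used strand is not given in the sources used here. Of ASNS, 44.6% of the exonic length is shared on the same strand with ENSG00000284707, a gene with 0 to 10 counts per library, so its level of 0.407 to 13.7 CPM is uncertain. DDIT3 shares 8.03% on the same and 31.6% on the opposite strand with MARS1, MBD6 and ENSG00000285133, MTHFD2 33.2% and PDIA6 25.2% on the opposite strand, and PYCR1 14.1% on the same and 15.6% on the opposite strand.

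Over the time course, most of the ATF4 arm was lower at day 4 than at day 0 in every line, WT included, whereas most of the endoplasmic reticulum chaperones were not. DDIT3, CHAC1 and TRIB3 did not pass the test described below in DNMT1-AID or compound cells. In WT, 19 of 21 tested integrated stress response members fell and 0 rose, among them ATF4, DDIT3, TRIB3, PSAT1 and all 4 transporters. Of the 16 unfolded protein response members, DNAJB9 and PDIA6 rose and HSPA5 and HSP90B1 fell. Tested with edgeR (quasi-likelihood, Benjamini-Hochberg over all genes, a gene passing at an adjusted p under 0.05), 2 of 37 members tested were higher in WT and 21 lower, where 17.7% and 17.8% of all genes tested were. The heat map of all members in all libraries shows most members of the upper 4 blocks turning blue from the day 0 to the day 4 columns, and DNAJB9 in the lowest block turning red.

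**Figure D1:**
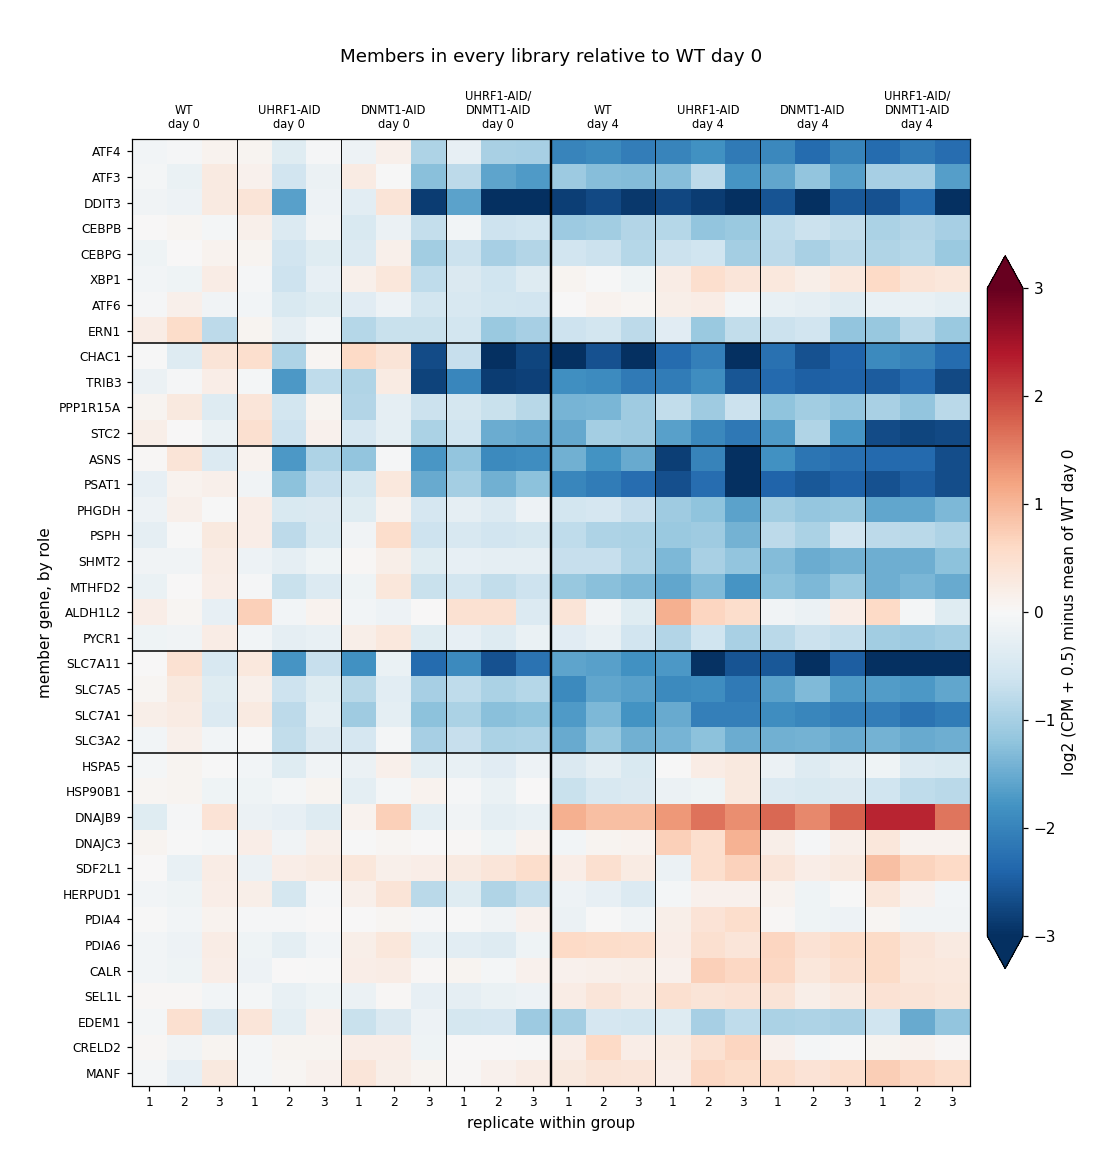
Level of 37 members (rows, grouped by role; VLDLR left out) in each of the 24 libraries (columns, replicates 1 to 3 of 8 groups), as log2 of CPM + 0.5 minus the mean of WT day 0, with blue lower and red higher. The ATF4 arm in the upper 4 blocks is mostly blue in the 12 day 4 libraries and in several day 0 libraries of the degron lines, and DNAJB9 is red in all 12 day 4 libraries.

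ATF4 (ENSG00000128272, chr22:39519695-39522685 of hg38) was at 627, 651 and 715 CPM in the WT day 0 libraries and at 167, 175 and 156 CPM in the WT day 4 libraries, so that the days were far apart. In UHRF1-AID cells it was at 698, 515 and 648 CPM at day 0 and at 167, 187 and 152 CPM at day 4. DNMT1-AID libraries had 599, 740 and 350 CPM at day 0 and 173, 134 and 165 CPM at day 4. In compound libraries it was at 556, 336 and 330 CPM and then at 134, 152 and 135 CPM. The lowest day 0 library was thus above the highest day 4 library, at 187 CPM. The log2 fold change of ATF4 was -2.02 (SE 0.11, adjusted p = 1.48e-05) in WT, -1.84 (SE 0.14, adjusted p = 1.91e-05) in UHRF1-AID, -1.84 (SE 0.27, adjusted p = 0.00145) in DNMT1-AID and -1.55 (SE 0.25, adjusted p = 0.00375) in compound cells by edgeR.

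DDIT3 (ENSG00000175197, chr12:57516588-57521737), which encodes CHOP, a factor linked to death of stressed cells, was at 36.7, 35.4 and 48 CPM in WT at day 0 and at 5.14, 5.70 and 4.88 CPM at day 4. UHRF1-AID libraries had 51.7, 12.5 and 35.8 CPM at day 0 and 5.54, 5.05 and 3.39 CPM at day 4. DNMT1-AID libraries had 31.5, 52.2 and 5.07 CPM at day 0 and 6.13, 3.47 and 6.35 CPM at day 4, so that replicate 3 of day 0 lay inside the day 4 range. compound libraries had 12.8, 3.07 and 3.55 CPM at day 0 and 6.02, 7.55 and 4.29 CPM at day 4, with day 0 replicate 1 above and replicates 2 and 3 below all 3 day 4 libraries. DDIT3 fell by 2.95 on the log2 scale in WT (SE 0.17, adjusted p = 1.48e-05) and by 2.80 in UHRF1-AID cells (SE 0.48, adjusted p = 0.00178). It did not pass in DNMT1-AID cells, with -2.48 (SE 0.89, adjusted p = 0.0828), or in compound cells, with -0.13 (SE 0.71, adjusted p = 0.887). Without day 0 replicate 1 the latter value turned to 0.83 (adjusted p = 0.00820, edgeR), and those of CHAC1 and TRIB3 turned to 0.89 and 0.30.

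All 4 tested feedback genes fell in WT and in UHRF1-AID cells, and 2 of 4, PPP1R15A and STC2, in each of the other lines. CHAC1, a glutathione-degrading enzyme, was at 67.5, 51.9 and 89.5 CPM in WT at day 0 and at 6.43, 10.6 and 6.91 CPM at day 4. TRIB3, a pseudokinase that restrains ATF4 and AKT, was at 332, 367 and 430 CPM and then at 104, 101 and 85.8 CPM. Neither gene's groups overlapped in WT. The log2 fold change in WT was -3.14 for CHAC1 (SE 0.26, adjusted p = 0.000196) and -1.98 for TRIB3 (SE 0.13, adjusted p = 3.62e-05). Neither passed in DNMT1-AID cells, with -2.44 for CHAC1 (adjusted p = 0.0836) and -1.72 for TRIB3 (adjusted p = 0.136), or in compound cells, with -0.32 (adjusted p = 0.757) and -0.05 (adjusted p = 0.897). PPP1R15A (GADD34), which restores translation by dephosphorylating eIF2, and STC2, a secreted glycoprotein, fell in all 4 lines, PPP1R15A by 0.33 to 1.34 and STC2 by 0.85 to 1.93 on the log2 scale. In DNMT1-AID cells STC2 passed in 1 of the 6 fits that left out a library.

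Of the 8 genes of amino acid and one-carbon synthesis, 6 fell in WT, 6 in DNMT1-AID, 7 in UHRF1-AID and 7 in compound cells. Of all genes tested, 17.8%, 20.8%, 22.9% and 32.5% fell, in this order of lines. ALDH1L2 passed in no line, PYCR1 did not in WT, at -0.39 (adjusted p = 0.0522), and PSPH, the last enzyme of serine synthesis, did not in DNMT1-AID cells, at -0.77 (adjusted p = 0.0650). PSAT1 was at 528, 676 and 705 CPM in WT at day 0 and at 161, 148 and 129 CPM at day 4. In compound cells it was at 309, 231 and 270 CPM and then at 103, 113 and 99.3 CPM. No day 0 library of either line reached down to its day 4 range, and the log2 fold change was -2.15 (SE 0.15, adjusted p = 4.20e-05) in WT and -1.38 (SE 0.10, adjusted p = 2.99e-09) in compound cells. SHMT2, the mitochondrial serine hydroxymethyltransferase, was at 496, 499 and 621 CPM and then at 332, 333 and 281 CPM in WT. In DNMT1-AID cells SHMT2 went from 547, 610 and 414 CPM to 216, 192 and 201 CPM, a log2 fold change of -1.37 (SE 0.15, adjusted p = 8.24e-05, edgeR). PHGDH, the first enzyme of serine synthesis, fell by 0.60 in WT, 0.88 in DNMT1-AID, 1.04 in UHRF1-AID and 1.23 in compound cells on the log2 scale. ASNS, asparagine synthetase, was at 10.7, 13.7 and 7.73 CPM in WT at day 0 and at 3.54, 2.67 and 3.33 CPM at day 4, and fell in all 4 lines, by 1.01 to 2.38 on the log2 scale.

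The 4 transporters were lower at day 4 in all lines, and only SLC7A11 in DNMT1-AID cells, at -1.56 (adjusted p = 0.113), did not pass. The shares of all genes that fell were 17.8% in WT, 20.8% in DNMT1-AID, 22.9% in UHRF1-AID and 32.5% in compound cells. SLC7A5, which pairs with SLC3A2 to import large neutral amino acids, was at 1121, 1323 and 833 CPM in WT at day 0 and at 285, 365 and 348 CPM at day 4. UHRF1-AID libraries had 1199, 696 and 835 CPM of SLC7A5 and then 286, 294 and 245 CPM. The groups were well apart in both lines, with a log2 fold change of -1.73 (SE 0.19, adjusted p = 0.000365) in WT and -1.69 (SE 0.19, adjusted p = 0.000158) in UHRF1-AID cells. SLC7A11, the cystine importer, was at 139, 190 and 98.2 CPM in WT at day 0 and at 45.3, 44.4 and 38.7 CPM at day 4.

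In the endoplasmic reticulum arm DNAJB9 stood out in all 4 lines. DNAJB9 (ERdj4), a co-chaperone and target of XBP1 that represses IRE1, was at 16.1, 20.4 and 28.1 CPM in WT at day 0 and at 44.6, 39.8 and 39.7 CPM at day 4. UHRF1-AID libraries had 18.5, 17.6 and 16 CPM and then 52.1, 65.9 and 56.2 CPM. DNMT1-AID libraries had 22.6, 34.7 and 17.1 CPM and then 70.4, 57.9 and 73.4 CPM. compound libraries went from 19.4, 17.0 and 17.9 CPM to 104, 104 and 64.9 CPM, and no line's day 4 libraries overlapped its day 0 libraries. The log2 fold change was 0.92 (SE 0.19) in WT, 1.43 (SE 0.24) in DNMT1-AID, 1.78 (SE 0.14) in UHRF1-AID and 2.32 (SE 0.20) in compound cells, with adjusted p-values of 0.00617, 0.00217, 2.20e-05 and 5.15e-05 by edgeR.

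PDIA6, a disulfide isomerase, also rose in all 4 lines, by log2 fold changes of 0.42 to 0.68, and in DNMT1-AID cells it passed in 2 of the 6 fits that left out a library. SEL1L, the adaptor of the HRD1 degradation complex, was at 71.4, 63.5 and 68.5 CPM in UHRF1-AID cells at day 0 and at 104, 98.0 and 101 CPM at day 4, and rose in the 3 degron lines, in DNMT1-AID cells in 3 of such 6 fits. SEL1L did not pass in WT, but its WT libraries did not overlap either. They were at 70.8 to 76.8 CPM at day 0 and at 86.4 to 95.2 CPM at day 4. XBP1 (ENSG00000100219, chr22:28794555-28800597) was at 105, 102 and 129 CPM in WT at day 0 and at 117, 110 and 102 CPM at day 4. UHRF1-AID libraries had 108, 71.9 and 94.2 CPM of XBP1 and then 131, 159 and 144 CPM. compound libraries had 82.9, 73.9 and 84.5 CPM and then 168, 146 and 141 CPM. The WT groups overlapped and those of UHRF1-AID and of compound cells did not. The log2 fold changes were -0.05 (SE 0.12, adjusted p = 0.766) in WT, 0.70 (SE 0.16, adjusted p = 0.00492) in UHRF1-AID and 0.91 (SE 0.08, adjusted p = 3.26e-08) in compound cells by edgeR. In DNMT1-AID cells, where day 0 ran from 65.5 to 141 CPM and day 4 from 125 to 139 CPM, XBP1 had a log2 fold change of 0.28 (SE 0.26, adjusted p = 0.413).

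The chaperone HSPA5 (ENSG00000044574, chr9:125234853-125241330) was at 1244, 1381 and 1290 CPM in WT at day 0 and at 967, 1073 and 942 CPM at day 4, and fell by 0.41 on the log2 scale (SE 0.12, adjusted p = 0.0264). It passed in 1 of the 6 fits that left out a WT library. In UHRF1-AID cells HSPA5 was at 1229, 1008 and 1208 CPM at day 0 and at 1283, 1518 and 1587 CPM at day 4, and rose by a log2 fold change of 0.39 (SE 0.12, adjusted p = 0.0235). DNMT1-AID libraries had 1150, 1439 and 1072 CPM and then 1163, 1001 and 1075 CPM, which overlapped. compound libraries had 1115, 1038 and 1172 CPM and then 1198, 979 and 949 CPM, which also overlapped.

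**Figure D2:**
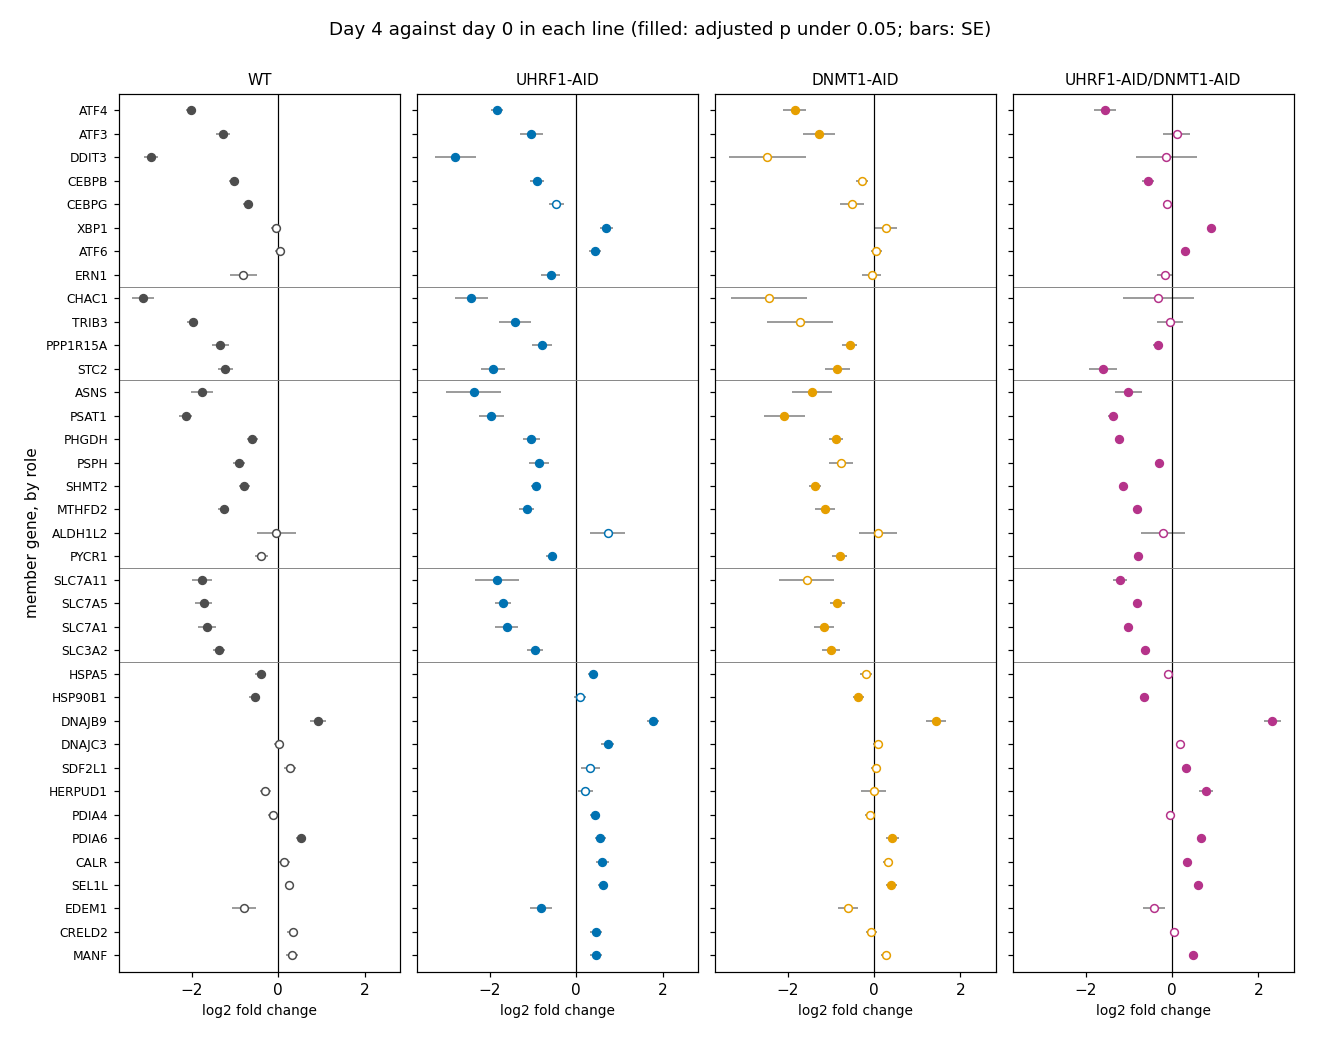
Log2 fold change of day 4 against day 0 for 37 members (VLDLR left out) in the 4 lines, with standard errors as bars and filled circles for an adjusted p under 0.05. Most members of the upper 4 blocks lie left of 0 in all lines, while in the lowest block DNAJB9 lies right of 0 in all lines, from 0.92 in WT to 2.32 in compound cells.

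In UHRF1-AID cells 11 of 37 members rose and 21 fell from day 0 to day 4, where 26.5% and 22.9% of all genes did (49.4% in either direction). The share of members that rose was near that of all genes. All 11 that rose were unfolded protein response members, and 19 of the 21 that fell were integrated stress response members. This comparison lies within 1 alignment folder. In DNMT1-AID cells 3 of 37 members rose and 14 fell, where 19.5% and 20.8% of all genes did (40.4% in either direction). The count of 17 passing members was 9 without day 4 replicate 1 or replicate 3 and 24 without day 0 replicate 3, so 1 library of 6 moved it by over 1.5 times. In compound cells 9 of 37 members rose and 16 fell, where 35.2% and 32.5% of all genes did (67.8% in either direction), so the share that rose was below that of all genes. The median log2 fold change over the integrated stress response members tested was -1.34 in WT, -1.13 in DNMT1-AID, -1.15 in UHRF1-AID and -0.80 in compound cells. That over the 16 unfolded protein response members was 0.03, 0.04, 0.45 and 0.30, and over all genes tested between -0.03 and 0.02. Members whose libraries did not overlap between the days numbered 28 in WT, 19 in DNMT1-AID, 31 in UHRF1-AID and 25 in compound cells, of 37 each, where 49.0%, 53.9%, 60.2% and 71.6% of all genes did not overlap. In bulk RNA a change in the number of cells in a state and a change in RNA per cell cannot be told apart.

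The slope of counts with gene length also moved with the day in UHRF1-AID and compound cells, while in WT and DNMT1-AID cells the days overlapped. On the scale of log2 CPM per log2 length, relative to the mean of all libraries, it lay between 0.0180 and 0.0348 in the compound libraries at day 0 and between -0.124 and -0.106 at day 4. With this slope as a covariate, 0 of the 25 members that passed in this line still did, and ATF4 turned to 2.06 (adjusted p = 0.796), while slope and day did not overlap in these 6 libraries and cannot be told apart. In UHRF1-AID cells the count went from 32 to 14 with the slope. The slope lay between 0.0702 and 0.110 at day 0 and between -0.0837 and 0.0667 at day 4 in this line. Slope and day therefore cannot be told apart there either. In WT and in DNMT1-AID cells the count of passing members stayed within 1.5 times of 23 and 17.

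At day 0 the ATF4 arm already differed strongly among libraries of 1 group, and it did so in the degron lines. DDIT3 ranged from 3.07 to 52.2 CPM over the 12 day 0 libraries, 17.0-fold, and from 3.39 to 7.55 CPM, 2.23-fold, over the 12 day 4 libraries. CHAC1 ranged 14.1-fold at day 0 and 2.73-fold at day 4, SLC7A11 8.56-fold and 3.89-fold, and TRIB3 8.51-fold and 1.83-fold. ATF4 ranged 2.24-fold at day 0, and other members of its arm less, such as PHGDH at 1.63-fold and PYCR1 at 1.62-fold. The 13 chaperone and degradation genes ranged from 1.18-fold for PDIA4 to 3.27-fold for EDEM1, with 1.43-fold for HSPA5.

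The same 5 libraries held the lowest 5 values of ATF4, DDIT3, CHAC1 and TRIB3 at day 0. These were UHRF1-AID replicate 2, DNMT1-AID replicate 3 and all 3 compound libraries. CHAC1 was at 35.7 CPM in UHRF1-AID replicate 2 and at 96.7 and 70.9 CPM in replicates 1 and 3. DNMT1-AID replicate 3 had 10.1 CPM of CHAC1 and replicates 1 and 2 had 103 and 88.4 CPM. compound replicate 1 had 42.1 CPM, between the other 2 libraries of its group, at 7.27 and 9.63 CPM, and those of WT. Relative to the mean of WT day 0, the median of 21 integrated stress response members was -0.62 on the log2 scale in UHRF1-AID replicate 2, -0.99 in DNMT1-AID replicate 3 and -0.64, -0.98 and -0.92 in the compound libraries. It was -0.29 in UHRF1-AID replicate 3, -0.41 in DNMT1-AID replicate 1 and between -0.07 and 0.16 in the other 5 day 0 libraries. The plot of members against ATF4 shows DDIT3, CHAC1 and TRIB3 low in the libraries where ATF4 was low, and CALR, shown as a member that did not follow this order, between 1102 and 1435 CPM. In all, 12 of 21 integrated stress response members, ATF4 included, had their 5 lowest values in these libraries. So did 3 of the 16 unfolded protein response members, namely XBP1, ATF6 and HERPUD1, and for HSPA5, PDIA6 and SEL1L 4 of the 5 lowest lay there. The 5 libraries were picked by ATF4's own values, so ATF4 matches by construction. They include all 3 compound libraries, so a gene lower in that line tends to match. The share of all genes with this order was not counted, so whether these counts are unusual was not tested. HERPUD1 was at 49.5 to 72 CPM in the 5 libraries and at 85.2 to 122 CPM in the other 7.

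**Figure D3:**
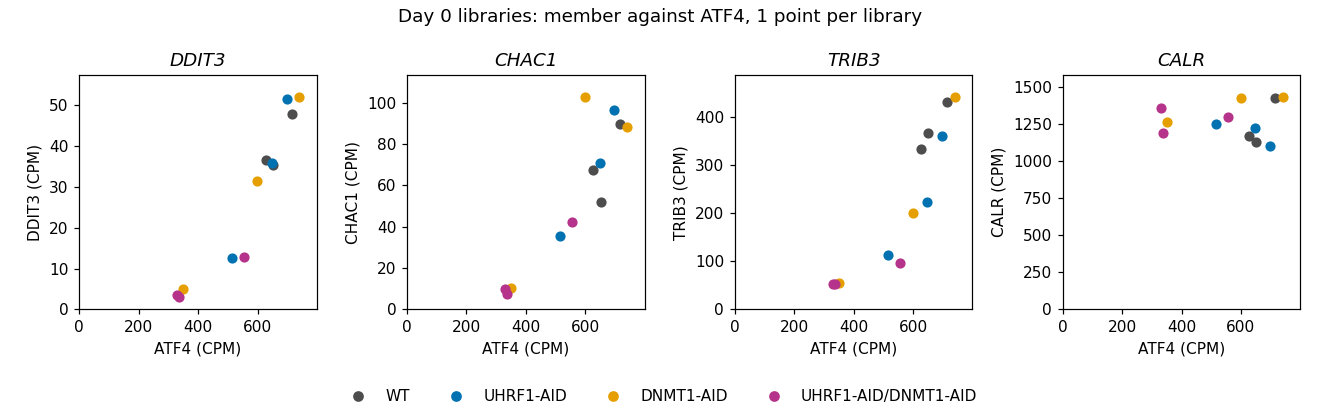
Level of DDIT3, CHAC1, TRIB3 and CALR (CPM, y axes from 0) against that of ATF4 (CPM, x axis) in the 12 day 0 libraries, 1 point per library and 1 colour per line. DDIT3, CHAC1 and TRIB3 are lowest in the 3 libraries with 330, 336 and 350 CPM of ATF4, and CALR, chosen as a member without this order, lies between 1102 and 1435 CPM.

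Compared with WT at day 0, no member passed in UHRF1-AID cells (0 of 37) by edgeR, where 0% of 13894 genes passed, 512 genes and 0 members had an unadjusted p under 0.05, and DESeq2 also called 0 members. In DNMT1-AID cells 0 of 37 members passed, where 0.00723% of all genes did, 711 genes and 8 members had an unadjusted p under 0.05, and DESeq2 called 0 members. The median log2 fold change over the integrated stress response members was -0.44 in DNMT1-AID and -0.23 in UHRF1-AID cells, with 1 and 2 of 21 above 0. In DNMT1-AID cells 3 of 37 members did not overlap with WT, where 9.77% of all genes did not, and in UHRF1-AID cells 2 of 37, where 11.1% did not. The largest single value was -1.25 (SE 0.57, adjusted p = 0.801) for SLC7A11 in DNMT1-AID cells.

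compound cells were lower than WT for much of the ATF4 arm before auxin. Of 37 members, 0 were higher and 12 lower, where 1.53% and 2.10% of all genes were (3.64% in either direction). The 12 were the transcription factors ATF3 and CEBPG, TRIB3, ASNS, PSAT1, MTHFD2, all 4 transporters, and, in the unfolded protein response, XBP1 and ATF6. TRIB3 was at 96.6, 51.9 and 53.0 CPM against 332, 367 and 430 CPM in WT. PSAT1 was at 309, 231 and 270 CPM against 528, 676 and 705 CPM. CEBPG, a partner of ATF4 on the CARE, was at 75.2, 58.4 and 63.2 CPM against 107, 119 and 127 CPM, so that none of these 3 overlapped with WT. The log2 fold changes were -2.48 for TRIB3 (SE 0.26, adjusted p = 0.00943), -1.24 for PSAT1 (SE 0.15, adjusted p = 0.00940) and -0.84 for CEBPG (SE 0.12, adjusted p = 0.0136) by edgeR. The largest fold change among the transporters was that of SLC7A11, at -2.30 (SE 0.29, adjusted p = 0.0162). ATF4 itself, at -0.71 (SE 0.20, adjusted p = 0.104), and DDIT3, at -2.62 (SE 0.54, adjusted p = 0.0525), did not pass, and XBP1 (log2 fold change -0.48, SE 0.11) passed by the narrowest margin. None of the 13 chaperone and degradation genes passed. Members that did not overlap with WT numbered 27 of 37, where 28.4% of all genes did not.

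The count of 12 depended on single libraries and on settings. It was 24 without WT replicate 3, 4 without WT replicate 1 or replicate 2, 1 without compound replicate 2 and 0 without replicate 3. WT replicate 3 was the WT library with a negative slope of counts with gene length, at -0.0628, against 0.0940 and 0.0992 in the other 2. With the slope as a covariate 23 members passed, DESeq2 called 19, and with the replicate number as a block 7 passed.

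At day 4, 1 of 8 tested synthesis enzymes was lower than WT in UHRF1-AID cells, 3 of 7 in DNMT1-AID cells and 5 of 7 in compound cells, and 0 were higher. Of all genes tested, 6.57%, 2.93% and 17.8% were lower and 10.9%, 5.02% and 20.4% higher, in this order of lines. ATF4 itself did not pass in any line, with log2 fold changes of -0.07 (SE 0.11) in DNMT1-AID, 0.06 (SE 0.11) in UHRF1-AID and -0.24 (SE 0.10) in compound cells and adjusted p-values of 0.722, 0.761 and 0.0548. DDIT3 did not pass either, with 0.02, -0.14 and 0.19. In contrast, PHGDH was lower than WT in all 3 lines. It was at 183, 189 and 167 CPM in WT, 127, 116 and 88.3 CPM in UHRF1-AID cells, 130, 120 and 121 CPM in DNMT1-AID cells and 91.3, 90.1 and 105 CPM in compound cells. Every WT library was above every library of the degron lines. The log2 fold change against WT was -0.67 (SE 0.14, adjusted p = 0.0112), -0.53 (SE 0.09, adjusted p = 0.00207) and -0.91 (SE 0.10, adjusted p = 3.46e-07) in this order of lines by edgeR. The 3 comparisons share the WT libraries.

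**Figure D4:**
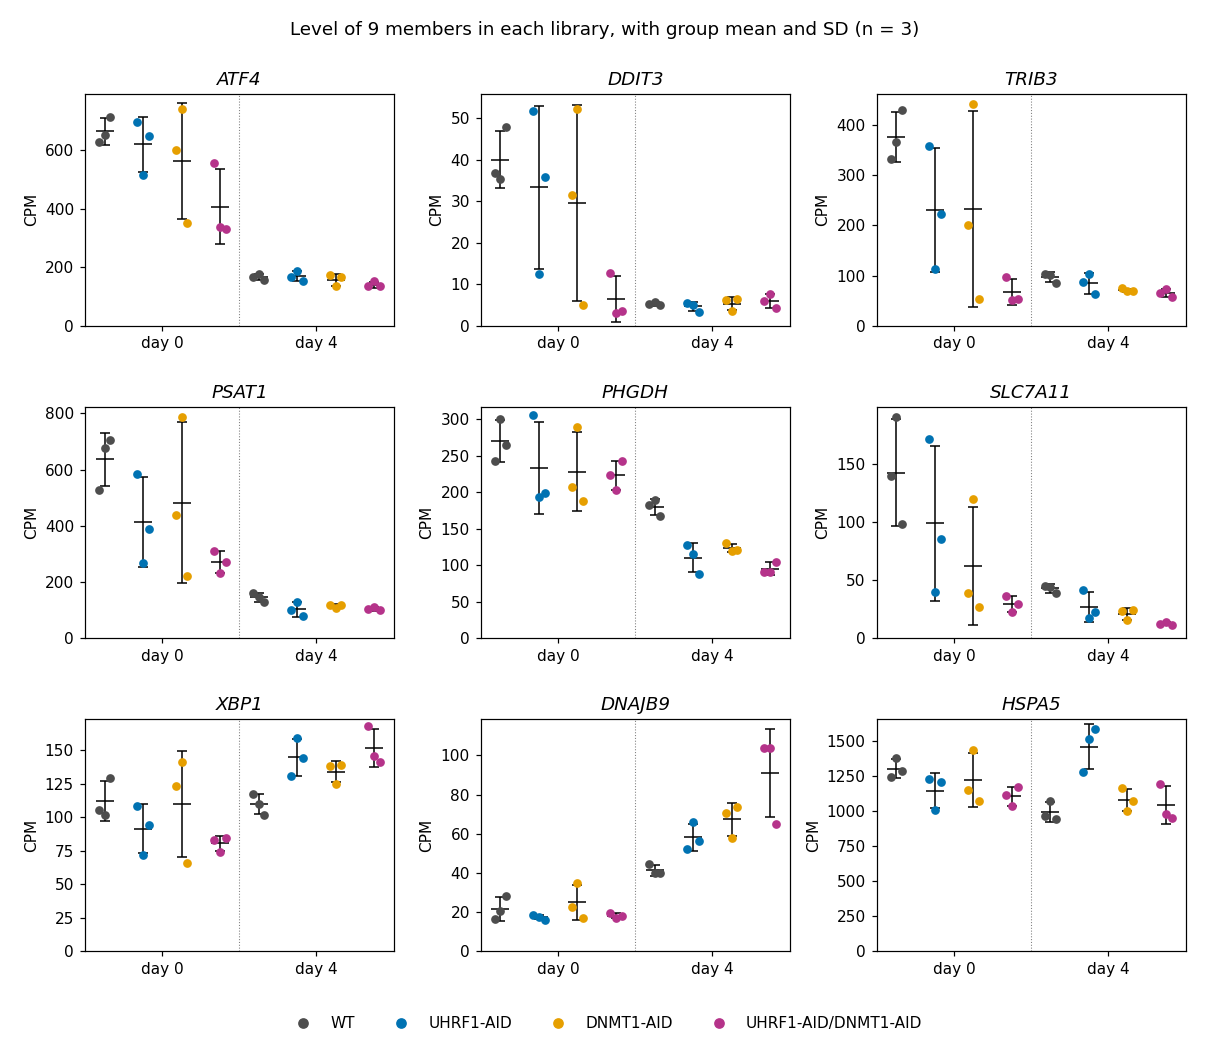
Level (CPM, axes from 0) of 9 members in each library of the 8 groups, with points coloured by line, horizontal bars for the mean and whiskers for the SD (n = 3). ATF4 lies between 134 and 187 CPM in all 12 day 4 libraries, PHGDH is highest in WT at day 4, and DNAJB9 at day 4 is lowest in WT, at 39.7 to 44.6 CPM.

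UHRF1-AID cells at day 4 were higher than WT in 6 of the 13 endoplasmic reticulum chaperone and degradation genes, and 0 of them were lower. The UHRF1-AID and WT libraries of day 4 lie in different alignment folders, so folder and line cannot be told apart here. Of 37 members 7 were higher and 2 lower, where 10.9% and 6.57% of all genes were. The 7 were XBP1, HSPA5, HSP90B1, DNAJB9, DNAJC3, HERPUD1 and PDIA4. DNAJC3 (P58IPK), a co-chaperone that inhibits eIF2 kinases, was at 100, 86.2 and 124 CPM against 57.0, 63.4 and 65.3 CPM in WT. HSPA5 was at 1283, 1518 and 1587 CPM against 967, 1073 and 942 CPM. PDIA4, a disulfide isomerase, was at 515, 608 and 651 CPM against 400, 449 and 420 CPM. None of these groups overlapped, nor did 18 of the 37 members in all, where 37.7% of all genes did not, and the log2 fold changes were 0.78 (SE 0.15, adjusted p = 0.00635), 0.59 (SE 0.12, adjusted p = 0.00909) and 0.52 (SE 0.12, adjusted p = 0.0177) by edgeR. The 2 lower members were PHGDH and STC2, the latter at 42.6, 34.4 and 29.9 CPM against 45.7, 65.3 and 63.3 CPM in WT (log2 fold change -0.67, SE 0.18, adjusted p = 0.0289). In compound cells, whose day 4 libraries share the folder of WT, XBP1, DNAJB9 and HERPUD1 were also higher than WT. HSPA5 (0.07), HSP90B1 (-0.18), DNAJC3 (0.16) and PDIA4 (0.06) did not pass in compound cells.

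Of the other chaperone genes in UHRF1-AID cells at day 4, CALR had a log2 fold change of 0.40 (adjusted p = 0.0998) and SDF2L1 of 0.12 (adjusted p = 0.736). PDIA6 pointed the other way, at 251, 306 and 278 CPM against 332, 317 and 312 CPM in WT without overlap, and did not pass (-0.17, adjusted p = 0.330). The count of 9 passing members was 3 or 4 without 1 WT library, 2 without UHRF1-AID replicate 3, and 14 without UHRF1-AID replicate 2, whose slope with gene length was -0.0837 against 0.0667 and 0.0314 in the other 2. DNAJC3 passed in all 6 fits that left out a library, HSPA5 in 5 and PDIA4 in 3. With no filter on low counts 17 members passed and with the slope as a covariate 16.

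DNMT1-AID cells at day 4 had 2 of 36 members higher than WT and 6 lower, where 5.02% and 2.93% of all genes were (7.95% in either direction). The share of members that were higher was near that of all genes. DNAJB9 was at 70.4, 57.9 and 73.4 CPM against 44.6, 39.8 and 39.7 CPM in WT, with a log2 fold change of 0.71 (SE 0.12, adjusted p = 0.00143), and CALR, at 1884, 1570 and 1733 CPM against 1347, 1378 and 1385 CPM, had 0.34 (SE 0.10, adjusted p = 0.0495). SHMT2 was lower, at 216, 192 and 201 CPM against 332, 333 and 281 CPM, with -0.63 (SE 0.10, adjusted p = 0.000972). SLC7A11 was lower too, at 23.2, 15.4 and 24.5 CPM against 45.3, 44.4 and 38.7 CPM, with -1.02 (SE 0.16, adjusted p = 0.00153). None of these 4 overlapped with WT, nor did 16 of the 36 members in all, where 29.7% of all genes did not. PHGDH, TRIB3, PYCR1, the last enzyme of proline synthesis, and ATF6 were the other 4 lower members. DNAJB9, SHMT2, SLC7A11 and PHGDH passed in all 6 fits that left out a library, and ATF6 and CALR in 1. The count of 8 was 4 without WT replicate 1 or DNMT1-AID replicate 3, 5 without WT replicate 2 or DNMT1-AID replicate 1, and 1 when all 24 libraries shared 1 fit.

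compound cells at day 4 had 7 of 36 members higher than WT and 10 lower, where 20.4% and 17.8% of all genes were. The share of members that were higher was thus near that of all genes. The lower members were TRIB3, STC2, ASNS, PSAT1, PHGDH, SHMT2, PYCR1, SLC7A11, SLC7A1 and ATF6, of which 5 are enzymes of amino acid and one-carbon synthesis. SLC7A11 (chr4:138164097-138242349) was at 12.5, 14.0 and 11.6 CPM against 45.3, 44.4 and 38.7 CPM in WT, a log2 fold change of -1.75 (SE 0.13, adjusted p = 1.33e-09). STC2 was at 20.2, 19.5 and 20.1 CPM against 45.7, 65.3 and 63.3 CPM, with -1.54 (SE 0.13, adjusted p = 1.38e-08). ASNS was at 1.69, 1.68 and 1.22 CPM against 3.54, 2.67 and 3.33 CPM, with -1.04 (SE 0.30, adjusted p = 0.00818). All 3 were below WT in every library.

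The higher members were XBP1, CHAC1, DNAJB9, SDF2L1, HERPUD1, CALR and MANF. DNAJB9 was at 104, 104 and 64.9 CPM against 44.6, 39.8 and 39.7 CPM, a log2 fold change of 1.14 (SE 0.18, adjusted p = 0.00123). XBP1 was at 168, 146 and 141 CPM against 117, 110 and 102 CPM, with 0.47 (SE 0.10, adjusted p = 0.000751). CHAC1, the exception in the ATF4 arm, was at 17.6, 16.5 and 13.4 CPM against 6.43, 10.6 and 6.91 CPM, with 0.99 (SE 0.19, adjusted p = 0.000437). None of these 3 overlapped with WT, nor did 22 of the 36 members in all, where 50.2% of all genes did not. HSPA5, at 1198, 979 and 949 CPM, did not pass, with 0.07 (SE 0.11, adjusted p = 0.630).

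Gene length moved with these results. The 7 higher members had a summed exon length of 1099 to 5155 bases (median 2714) and the 10 lower ones 2188 to 9645 (median 5483), against a median of 4256 over the 36 tested. The slope of counts with length was between -0.124 and -0.106 in the compound libraries and between -0.0440 and 0.03 in WT at day 4. Slope and line did not overlap in these libraries and cannot be told apart, so the fit below cannot decide which calls are due to length. With the slope as a covariate 7 of the 17 members passed, and all 7 were lower: SLC7A11 at -2.13 (adjusted p = 0.000104), PHGDH at -1.12 (0.00362), PSAT1 at -0.97 (0.00658), PYCR1 at -1.03 (0.00711), SHMT2 at -0.98 (0.0101), TRIB3 at -1.02 (0.0124) and STC2 at -0.93 (0.0383). The higher members kept their sign, with DNAJB9 at 0.88 (adjusted p = 0.340), CHAC1 at 1.07 (adjusted p = 0.213), SDF2L1 at 0.50 and CALR and MANF at 0.35 each, while XBP1 went to 0.23 (adjusted p = 0.578) and HERPUD1 to 0.11 (adjusted p = 0.837).

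**Figure D5:**
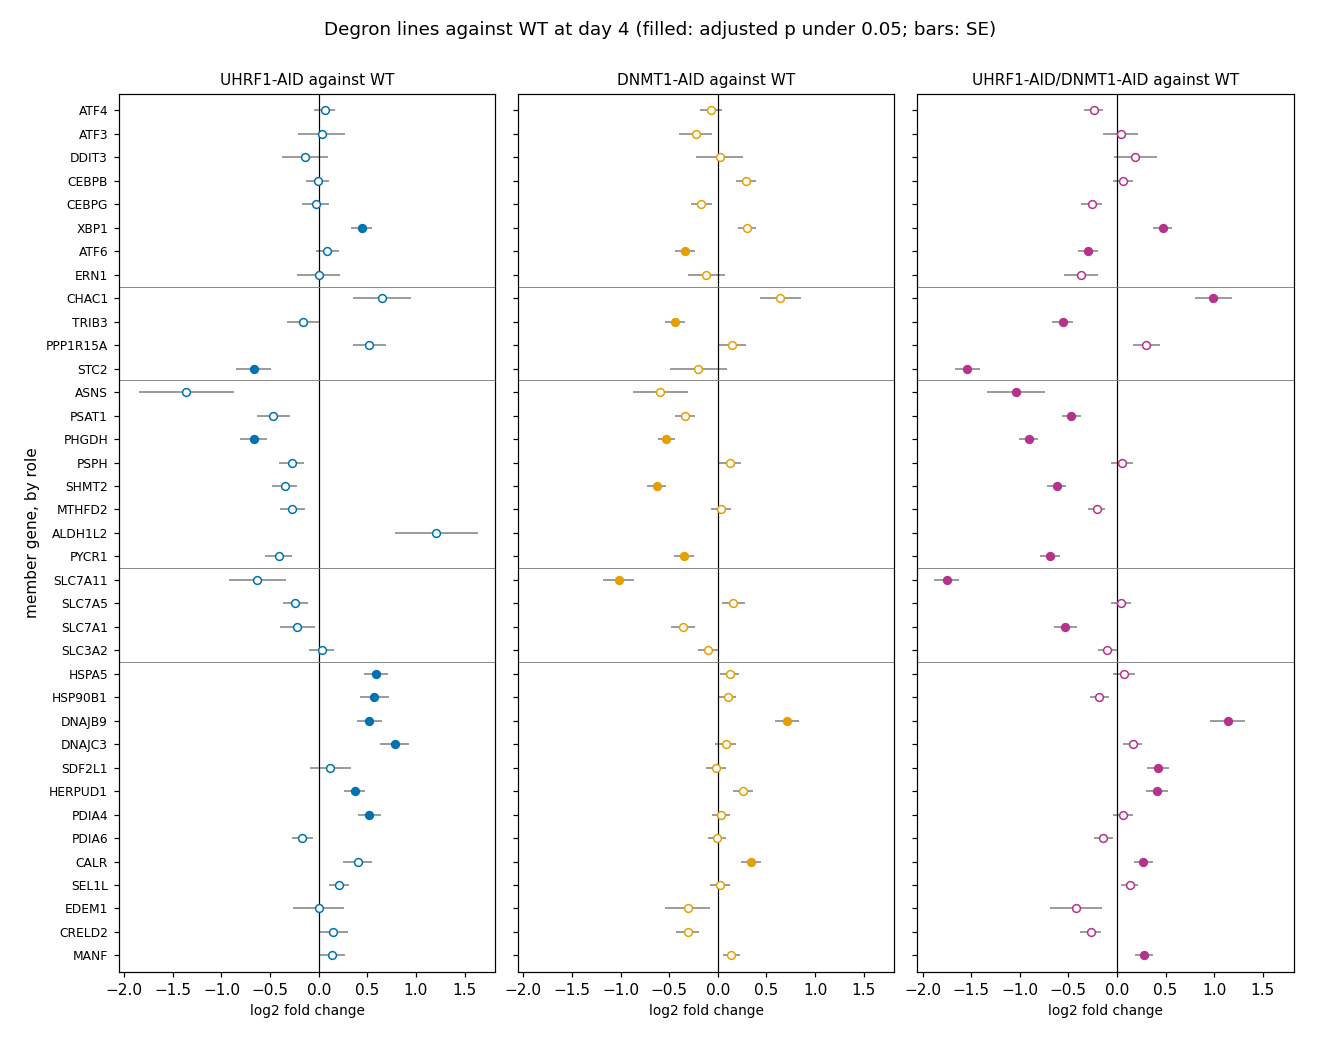
Log2 fold change against WT at day 4 for the members tested in UHRF1-AID, DNMT1-AID and compound cells, with standard errors as bars and filled circles for an adjusted p under 0.05. Filled circles right of 0 lie in the lowest block of chaperones, with XBP1 and, in compound cells, CHAC1, and those left of 0 among enzymes, transporters, TRIB3, STC2 and ATF6.

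Between the degron lines at day 4 few members differed. UHRF1-AID cells had 3 of 37 members higher than DNMT1-AID cells and 0 lower, where 6.79% and 7.09% of all genes were. The share of members that were higher was near that of all genes. The libraries of these lines also lie in different alignment folders at day 4, so folder and line cannot be told apart. The 3 were DNAJC3 at 100, 86.2 and 124 CPM against 68.7, 58.7 and 67.6 CPM, PDIA4 at 515, 608 and 651 CPM against 463, 418 and 410 CPM, and HSPA5 at 1283, 1518 and 1587 CPM against 1163, 1001 and 1075 CPM. The log2 fold changes were 0.68 (SE 0.15, adjusted p = 0.0166), 0.46 (SE 0.12, adjusted p = 0.0324) and 0.44 (SE 0.12, adjusted p = 0.0361). The count was 11 without UHRF1-AID replicate 2, 6 without UHRF1-AID replicate 1 and 0 without UHRF1-AID replicate 3 or any 1 DNMT1-AID library, and with the replicate number as a block only DNAJC3 passed.

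compound cells had 1 of 36 members higher than DNMT1-AID cells and 5 lower, where 10.7% and 9.79% of all genes were. SDF2L1, a short chaperone gene with an ERSE-II, was at 135, 115 and 110 CPM against 92.5, 83.7 and 87.5 CPM, a log2 fold change of 0.44 (SE 0.09, adjusted p = 0.00279). SLC7A11 was at 12.5, 14.0 and 11.6 CPM against 23.2, 15.4 and 24.5 CPM, with -0.73 (SE 0.16, adjusted p = 0.00416), PHGDH had -0.38 (adjusted p = 0.00519) and PYCR1, at 232, 225 and 236 CPM against 276, 306 and 292 CPM, -0.34 (SE 0.08, adjusted p = 0.00608). These groups did not overlap. STC2 (-1.34) and HSP90B1 (-0.29) were also lower. Slopes with gene length lay between -0.0419 and -0.00939 in the DNMT1-AID libraries, apart from those of compound cells, and with the slope as a covariate 0 members passed. The fold changes did not all shrink in that fit, with SLC7A11 at -1.53, SDF2L1 at 0.86, PYCR1 at -0.40, PHGDH at -0.12 and STC2 at -0.33, each with an adjusted p of 0.997.

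Whether the change over the 4 days itself differed from that in WT was tested in fits of 12 libraries. For DNMT1-AID cells 0 of 37 members passed, where 0.139% of all genes were higher and 0.0139% lower, 5 members and 1829 genes had an unadjusted p under 0.05, and DESeq2 called 1 member. For compound cells 12 members had a higher and 1 a lower day effect than WT, where 6.14% and 9.12% of all genes had. The 12 were ATF3, DDIT3, CEBPG, XBP1, TRIB3, PPP1R15A, PSAT1, PSPH, SLC7A5, SLC3A2, DNAJB9 and HERPUD1, and PHGDH was the 1 lower. The ubiquitin-domain protein HERPUD1 of the degradation complex was at 72, 49.5 and 56.7 CPM at day 0 and 118, 102 and 87.1 CPM at day 4 in compound cells, and at 87.4, 85.2 and 107 CPM and then 83.1, 77.8 and 70.2 CPM in WT. The difference of the log2 fold changes was 1.02 (SE 0.20, adjusted p = 0.00363). It was 0.91 (SE 0.15, adjusted p = 0.00104) for XBP1, 1.34 (SE 0.28, adjusted p = 0.00619) for DNAJB9 and 1.88 (SE 0.31, adjusted p = 0.00312) for TRIB3 by edgeR. For TRIB3 the 2 lines differed at day 0, with means of 67.2 and 376 CPM, more than at day 4, with 65.2 and 96.7 CPM, and likewise DDIT3 had means of 6.48 and 40.1 CPM at day 0 and 5.95 and 5.24 CPM at day 4. For DNAJB9 the reverse held, with 18.1 and 21.5 CPM at day 0 and 91.0 and 41.4 CPM at day 4. With all 24 libraries in 1 fit 5 members passed. UHRF1-AID was not tested in this way because its day 4 libraries lie in another alignment folder than those of WT.

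Genes of related lists, none of them members, were counted beside them. Of 29 further ATF4 and CHOP target genes, 21 of 26 tested fell and 0 rose from day 0 to day 4 in WT, where 17.8% and 17.7% of all genes did. In the degron lines some rose, with 15 falling and 7 rising of 27 in UHRF1-AID, 9 and 3 of 25 in DNMT1-AID and 11 and 7 of 26 in compound cells. At day 0, 15 of 26 were lower and 0 higher in compound cells than in WT, where 2.10% and 1.53% of all genes were. At day 4 against WT, the counts of genes past the test upward and downward were 4 and 1 in DNMT1-AID, 7 and 2 in UHRF1-AID, and 5 and 10 in compound cells. The shares of all genes were 5.02% and 2.93%, 10.9% and 6.57%, and 20.4% and 17.8%. ATF5, a factor related to ATF4, was among the higher in all 3 lines, at 83.7, 90.9 and 66.2 CPM in UHRF1-AID cells, 41.4, 35.7 and 39.2 CPM in DNMT1-AID and 91.8, 77.6 and 69.5 CPM in compound cells against 15.6, 17.5 and 18.3 CPM in WT. Its log2 fold change was 2.26 (SE 0.15, adjusted p = 2.95e-05), 1.18 (SE 0.13, adjusted p = 3.33e-05) and 2.22 (SE 0.12, adjusted p = 1.30e-11). TXNIP, which binds thioredoxin, had 0 counts in all WT day 4 libraries. Against a floor of 3 counts per library it was at least 8.35-fold higher in DNMT1-AID, 43.1-fold in UHRF1-AID and 87.3-fold in compound cells, where its mean was 1.56, 8.04 and 16.3 CPM.

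The 20 aminoacyl-tRNA synthetase genes, many of which are ATF4 targets, fell with the members: 16 fell and 0 rose over the 4 days in WT, 18 and 0 in DNMT1-AID, 14 and 0 in UHRF1-AID, and 19 and 0 in compound cells. Of all genes, 17.8%, 20.8%, 22.9% and 32.5% fell in these lines, and 17.7%, 19.5%, 26.5% and 35.2% rose. EPRS1 fell by 1.38 on the log2 scale in WT and by 1.93 in compound cells. Against WT at day 4, 14 of the 20 were lower in compound, 3 in DNMT1-AID and 1 in UHRF1-AID cells, with 0 higher in each. Of all genes, 17.8%, 2.93% and 6.57% were lower and 20.4%, 5.02% and 10.9% higher. Of 38 tested genes of a further list of endoplasmic reticulum chaperone and degradation genes, 17 rose and 3 fell over the 4 days in WT, 14 and 2 in DNMT1-AID, 24 and 2 in UHRF1-AID, and 21 and 4 in compound cells. Of all genes, 17.7%, 19.5%, 26.5% and 35.2% rose in these lines. Of 18 eIF2 kinases and regulators, EIF2AK2 (PKR), the kinase that senses double-stranded RNA, was higher than WT at day 4 in UHRF1-AID, DNMT1-AID and compound cells, with log2 fold changes of 1.03 (SE 0.13), 0.75 (SE 0.11) and 0.70 (SE 0.13). The counts of this list past the test at day 4 against WT were 1 and 0 (higher, lower) in DNMT1-AID, 1 and 1 in UHRF1-AID and 2 and 8 in compound cells. The shares of all genes were 5.02% and 2.93%, 10.9% and 6.57%, and 20.4% and 17.8%. EIF2AK4 (GCN2), which senses amino acid shortage, was lower in compound cells, at -0.69 (SE 0.11, adjusted p = 3.47e-05). Of 16 cytosolic heat shock genes, 5 rose and 7 fell over the 4 days in WT, and of 15 tested NRF2 target genes 4 rose and 4 fell, where 17.7% and 17.8% of all genes did.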

How the data were processed

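The authors prepared polyadenylated RNA libraries with a NEBNext Ultra kit, sequenced paired ends, aligned them to hg38 with STAR and deposited raw counts of reads per gene from featureCounts, 1 table per library. Strand setting and treatment of multiply aligned reads are not given in the sources used here. ERCC counts were left out. From the deposited counts, each comparison was fitted on its own libraries with edgeR 4.0.16 in R 4.3.3 (filterByExpr, TMM, robust quasi-likelihood test, Benjamini-Hochberg over all genes tested). A gene passed at an adjusted p under 0.05. The fold threshold of the study's methods, an absolute log2 fold change over 1, was an alternative, as were DESeq2 1.42.0, RLE scaling, other filters, all 24 libraries in 1 fit, a replicate block, the slope of each library's counts with gene length as a covariate and 96 fits without 1 library. CPM values use TMM over all libraries, and a count of 0 was given a floor of 3 counts per library. Such floors cover counting error only.

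Members, lists and tests were chosen with earlier results of these data known. Values in every library are given for ATF4, DDIT3, ASNS, XBP1, HSPA5 and up to 3 members of smallest p per direction and comparison, and of other lists up to 2 genes with the smallest p. Values of further members were chosen after they were seen. Of 41 names in 1 list 39 matched a gene. The 6 other lists and 2 marker lists were written by hand. Same-numbered replicates were checked for pairing by the correlation of their deviations across genes, which lay between -0.622 and 0.235 over 12 comparisons, and were all over 0.1 only between the days in UHRF1-AID cells (0.228, 0.143 and 0.122). There the block made 33 members pass in place of 32. Within groups, every pair of libraries was further apart than counting noise allows (chi-square per degree of freedom 3.52 to 59.2). On simulated counts with 200 changed genes, modelled on UHRF1-AID against WT at day 4, 100% of these were recovered (13917 genes fitted, 8 false calls), and of those modelled on the day effect in compound cells minus that in WT 97.5% (14521 genes, 14 false calls). All genes were simulated with the same dispersion. Every planted change was larger than that of any member passing in UHRF1-AID against WT at day 4. Recovery of changes as small as those of most members was therefore not tested. Promoters come from RefSeq (GRCh38.p14), and exon overlaps from GENCODE. Figures come from matplotlib 3.10.9 (Python 3.11.15, with pandas 2.3.3).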

Additional observations from a re-analysis of the deposited data

Results flagged for a closer look

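For 13 members the change from day 0 to day 4 differed between compound cells and WT by the interaction test of edgeR at an adjusted p under 0.05. The difference of the log2 fold changes (compound minus WT) was 1.34 for ATF3, 2.77 for DDIT3, 0.54 for CEBPG, 0.91 for XBP1, 1.88 for TRIB3, 0.97 for PPP1R15A, 0.72 for PSAT1 and -0.68 for PHGDH. It was 0.56 for PSPH, 0.88 for SLC7A5, 0.71 for SLC3A2, 1.34 for DNAJB9 and 1.02 for HERPUD1. In the 12 fits that left out 1 library, DDIT3 passed in 4, CEBPG and PSPH in 5, ATF3 in 8 and the other 9 members in all 12. Mean ATF3 in compound and WT was 12.3 and 31.2 CPM at day 0 and 13.3 and 13.0 CPM at day 4. DDIT3, CEBPG, TRIB3, PPP1R15A, PSAT1, PSPH, SLC7A5 and SLC3A2 also differed more between the lines at day 0 than at day 4. DNAJB9 and PHGDH differed more at day 4. XBP1 and HERPUD1 were lower than in WT at day 0 and higher at day 4. In both lines day 4 lies in another alignment folder than day 0, and compound was the line whose slope with gene length fell most, from 0.0180 to 0.0348 at day 0 to -0.124 to -0.106 at day 4. The part of either in these differences was not tested.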

How the results depend on the processing

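Counts below are members with an adjusted p under 0.05, the value as reported first and then that under the alternative. Where a count moved by over 1.5 times, the cause was not tested. With the threshold of an absolute log2 fold change over 1, by its construction, the counts fell from 12 to 6 (compound against WT at day 0), 9 to 0, 8 to 1 and 17 to 4 (UHRF1-AID, DNMT1-AID and compound against WT at day 4), 3 to 0 and 6 to 1 (UHRF1-AID and compound against DNMT1-AID at day 4). Over the 4 days they fell from 23 to 15 in WT, 32 to 14 in UHRF1-AID, 17 to 8 in DNMT1-AID and 25 to 9 in compound cells, and from 13 to 5 in the difference of day effects. With all 24 libraries in 1 fit, DNMT1-AID against WT at day 4 fell from 8 to 1, compound against WT from 17 to 7 and against DNMT1-AID from 6 to 1, UHRF1-AID against DNMT1-AID rose from 3 to 6, and the difference of day effects of compound fell from 13 to 5. DESeq2 gave 19 for 12 at day 0, 7 for 3 in UHRF1-AID against DNMT1-AID and 1 for 0 in the day effect of DNMT1-AID minus WT. Without a filter on low counts, the last was 2, UHRF1-AID against WT at day 4 was 17 and UHRF1-AID against DNMT1-AID 9. RLE scaling and the stricter filter moved no count by over 1.5 times. With the length slope as a covariate, the counts were 23 for 12 at day 0, 16 for 9, 7 for 17, 9 for 3 and 0 for 6 in the day 4 comparisons of UHRF1-AID with WT, compound with WT, UHRF1-AID with DNMT1-AID and compound with DNMT1-AID, and 1 for 0 in the day effect of DNMT1-AID minus WT. Over the 4 days they were 14 for 32 in UHRF1-AID and 0 for 25 in compound cells. In the latter the log2 fold change turned to 2.06 for ATF4, 2.14 for CEBPB, 1.51 for PPP1R15A, 4.22 for STC2, 4.06 for ASNS, 0.14 for PSPH, 0.74 for SLC7A11, 0.86 for SLC7A1 and 0.92 for SLC3A2, with adjusted p-values of 0.315 to 0.978. In the fits of this line without 1 library, DDIT3 ranged from -0.47 to 0.83, CHAC1 from -0.72 to 0.89 and TRIB3 from -0.21 to 0.30, in each case highest without day 0 replicate 1.

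With the replicate number as a block, where same-numbered libraries are treated as paired, the counts were 7 for 12 at day 0, 5 for 8 in DNMT1-AID against WT at day 4 and 1 for 3 in UHRF1-AID against DNMT1-AID. Within 1.5 times stayed the others, such as 9 for 13 in the day effect of compound minus WT cells and 22 for 23 between the days in WT, where HSPA5 no longer passed. In UHRF1-AID against WT at day 4 it was 7 for 9, without XBP1 and HERPUD1, and between the days in DNMT1-AID cells 14 for 17, without HSP90B1, PDIA6 and SEL1L.

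Leaving out 1 library at a time, the counts ranged from 0 to 24 for compound against WT at day 0, from 2 to 14, 4 to 11 and 14 to 22 for UHRF1-AID, DNMT1-AID and compound against WT at day 4, and from 0 to 11 and 4 to 6 for UHRF1-AID and compound against DNMT1-AID. Between the days they ranged from 21 to 30 in WT, 25 to 30 in UHRF1-AID, 9 to 24 in DNMT1-AID and 24 to 27 in compound cells, and from 9 to 17 in the difference of day effects of the latter. They were 0 in all fits of UHRF1-AID and DNMT1-AID against WT at day 0 and of the day effect of DNMT1-AID. Members below about 10 counts in a library (VLDLR, ALDH1L2 and, in 1 library, ASNS) limit what their values can show.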
